A study of Homo sapiens with 6 samples.

Results

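The 41 transcripts described here encode regulators of mitosis in human cells, from the cyclins and kinases that start it to the condensin subunits that compact chromosomes and the kinetochore proteins that attach them to the spindle. They were chosen by gene name as a fixed set of 41 names, and each name was taken from the deposited table of 48162 genes by exact match. The transcripts were recovered with Argonaute 2 (Ago2), the protein that holds a microRNA in the silencing complex, from HEK293 cells, a line long established from human embryonic kidney. The cells were co-transfected with Ago2 carrying a Flag tag and either a microRNA-219 mimic (3 libraries) or a negative control mimic (3 libraries), so the tagged protein is shared by both groups. The anti-Flag precipitate was the source of the sequenced RNA. Each group has 1 library from 22 August, 1 from 5 September and 1 from 18 September, and values below follow that order. No RNA from before the precipitation was used here, so the amount of a transcript in the cells and the share of it held by Ago2 cannot be told apart. The labels do not say whether the dates were separate cultures, and each p-value then measures only the spread between these libraries, part of which may be technical.

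Mitosis is run by cyclin-dependent kinase 1 with its B-type cyclins, and Polo and Aurora kinases act beside it on centrosomes, kinetochores and the spindle. The spindle checkpoint holds back the anaphase-promoting complex until kinetochores are attached, after which securin and cyclin B are destroyed and separase cuts cohesin. Most of these genes are transcribed late in the cell cycle through promoters bound by the DREAM and MuvB complexes, which recognise a short element called CHR, and by NF-Y, which binds CCAAT boxes. Dividing lines such as HEK293 hold all of these transcripts. A microRNA in Ago2 pairs with messenger RNA mainly through its seed, bases 2 to 8, and an excess of mimic is known to bring paired messages into the precipitate.

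The mature sequences of microRNA-219 are shown because they are what the mimic stands for. Which of the mature strands the mimic carries is not given in the labels, and both strands annotated by RefSeq for the MIR219A2 gene are printed, on assembly GRCh38.p14, with the seed in capitals. The 5p strand is at chr9:128392676-128392696 and the 3p strand at chr9:128392632-128392653, both on the minus strand.
hsa-miR-219a-5p: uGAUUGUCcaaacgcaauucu
hsa-miR-219a-2-3p: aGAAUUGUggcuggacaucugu

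RefSeq promoter windows, from 250 bases before to 50 bases after a transcription start, were given for 34 of the 41 genes, in 48 windows, some of which overlap. The CHR letters TTTGAA or TTCGAA were found on either strand in 31 of the 48 windows (64.6%), against 16.4% of all 35116 windows of this length. CCAAT was found on either strand in 32 of 48 windows (66.7%), against 34.6% of all windows, and both elements together in 22 of 48 windows (45.8%), against 6.38%. A match is a description of the letters and not a shown binding site. The windows of PLK1, MKI67 and TOP2A are printed as examples. Each of these genes, like some others of the set, has a single window with both elements, and its values are given below. Capitals mark CHR (TTTGAA, or TTCAAA on the other strand) and CCAAT (or ATTGG on the other strand), and in MKI67 a CHR and an ATTGG overlap. They lie at chr16:23678639-23678938 on the plus strand (PLK1), chr10:128126374-128126673 on the minus strand (MKI67) and chr17:40417847-40418146 on the minus strand (TOP2A) of GRCh38.p14.
PLK1: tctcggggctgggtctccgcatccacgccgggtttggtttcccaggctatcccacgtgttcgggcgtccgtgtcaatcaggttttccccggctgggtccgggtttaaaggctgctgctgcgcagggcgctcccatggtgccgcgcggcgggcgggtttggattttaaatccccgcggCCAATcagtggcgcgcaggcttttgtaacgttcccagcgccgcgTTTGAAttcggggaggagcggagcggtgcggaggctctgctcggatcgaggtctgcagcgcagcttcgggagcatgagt
MKI67: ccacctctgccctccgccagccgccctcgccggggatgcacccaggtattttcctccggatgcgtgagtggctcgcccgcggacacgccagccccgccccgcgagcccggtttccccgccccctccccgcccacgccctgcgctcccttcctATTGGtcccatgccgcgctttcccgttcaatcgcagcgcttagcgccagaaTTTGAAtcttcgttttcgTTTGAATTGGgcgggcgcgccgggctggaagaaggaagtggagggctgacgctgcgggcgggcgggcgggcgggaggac
TOP2A: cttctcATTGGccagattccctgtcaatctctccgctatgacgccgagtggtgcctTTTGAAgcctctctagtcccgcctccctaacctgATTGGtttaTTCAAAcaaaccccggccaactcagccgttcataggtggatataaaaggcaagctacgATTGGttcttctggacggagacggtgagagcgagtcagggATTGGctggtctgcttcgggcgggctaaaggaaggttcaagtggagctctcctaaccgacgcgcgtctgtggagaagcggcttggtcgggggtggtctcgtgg

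The 6 libraries held 20379336 to 31490366 counts with the microRNA-219 mimic and 20233819 to 34408699 with the negative control mimic. AGO2, which the cells were transfected with, accounted for 13.5, 16.7 and 12.6% of counts with the microRNA-219 mimic and for 11.7, 18.0 and 10.6% with the control (edgeR log2 fold change 0.08, SE 0.32, adjusted p = 0.999). A list of genes taken as markers of the HEK293 line held NEFL, NEFM, VIM, LIN28B, PAX2, KRT8 and KRT18. VIM and KRT8 had most of its counts, with 19419 and 20796 in the 22 August library with the microRNA-219 mimic, against 202 for PAX2. Whether the list tells HEK293 cells from other tissue was not tested. Its genes were counted in every library, at a summed counts-per-million value (CPM of the library total, before TMM normalization) of 1653 to 1784 with the microRNA-219 mimic and 1532 to 1949 with the control. On the same scale, a list of 8 intestinal and plasma cell genes summed to 9.43 to 38.5 CPM with the microRNA-219 mimic and 14.2 to 52.9 with the control. Its members IGHA1, FABP1 and JCHAIN were at 0 in the 22 August library with the microRNA-219 mimic and in the 5 September control library. PIGR, VIL1, LGALS4 and KRT20 had 1 to 33 counts in those libraries. CDX2 had 285 and 451 counts there, most of the list's counts in them, and 242 to 459 in the others. The haemoglobin gene HBB had 23319 counts in the 5 September control library and at most 2 in any other. The part of these transcripts in the results below was not tested.

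All 41 mitotic transcripts were well counted, with 360 to 8522 counts per library, and all 41 passed the filter on low counts that left 16233 genes. Levels of genes are from here on CPM after TMM normalization, and ran from 13.3 to 275 CPM. Per kilobase of gene model, mean levels over the 6 libraries ordered the transcripts from ASPM, at 2.61 ± 0.65, and CENPF, at 2.65 ± 0.59 CPM per kb (SD, n = 6), which do not differ beyond their spread, up to BUB3, at 88.0 ± 10.5, and CDC20, at 92.1 ± 12.5 CPM per kb, which also overlap. Subunits of 1 complex were not recovered in equal amounts. Within condensin, NCAPD2 was the highest and SMC2 the lowest per kilobase in all 6 libraries, 3.11 to 4.21 times apart with the microRNA-219 mimic and 4.86 to 5.20 times apart with the control. This pair was picked as the extremes in these same libraries, and the difference between the groups in its ratio was not tested. Of the NDC80 complex, the set holds NDC80, NUF2 and SPC25 but not SPC24, which was not ranked. Among those in the set, NDC80 was the highest in all 6 libraries and the lowest was SPC25 in 1 library and NUF2 in the other 5. The coefficient of variation of a transcript over the 6 libraries ran from 6.19% for CDC25A to 31.3% for MKI67, with a median of 15%.

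**Figure D1:**
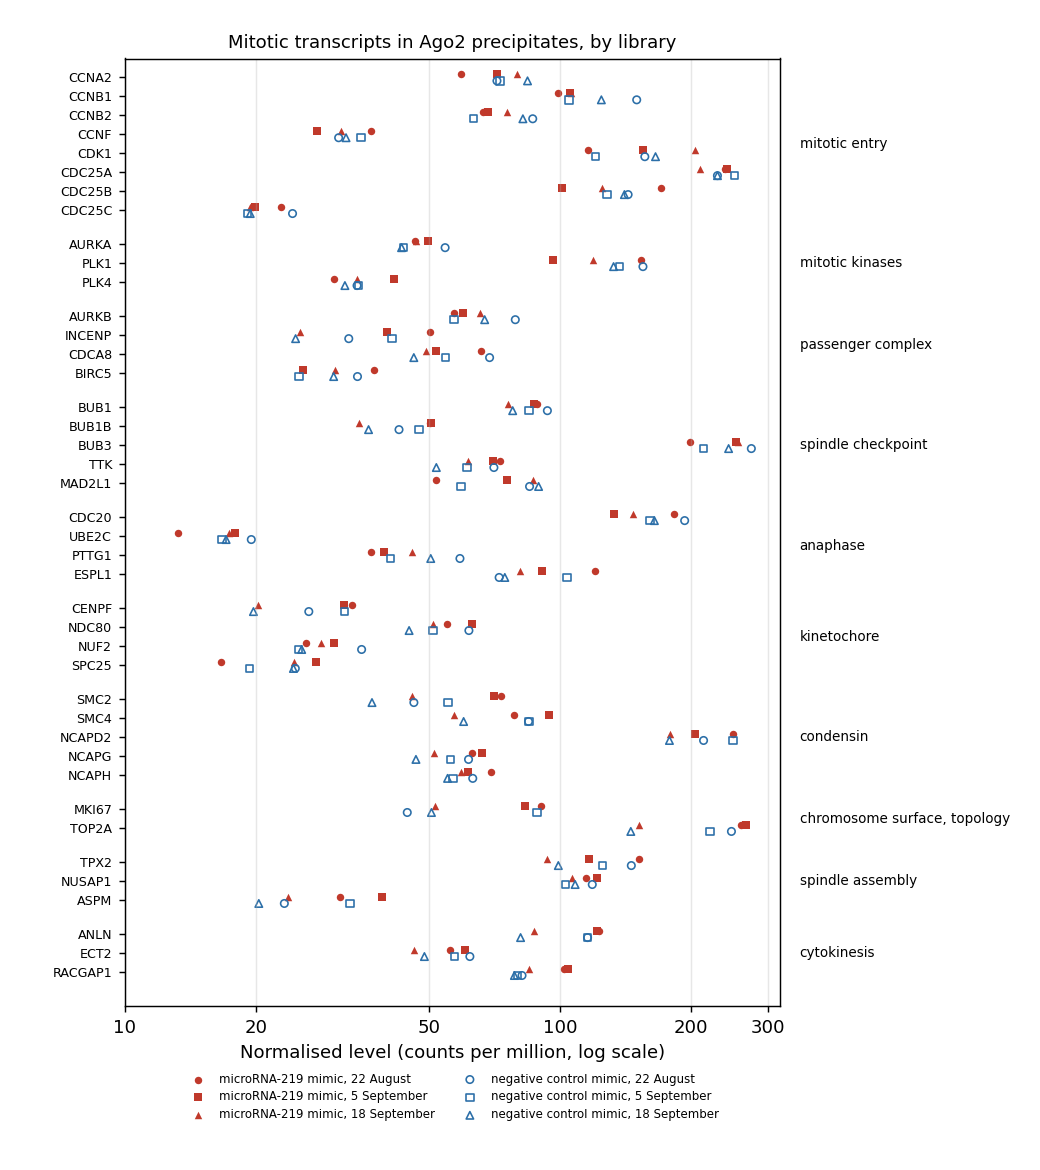
Level of each of the 41 mitotic transcripts in each library, in CPM on a log axis, grouped by role. Filled red marks are libraries with the microRNA-219 mimic, open blue marks those with the negative control mimic, and the shape gives the date. The marks of the 2 groups interleave for all transcripts but RACGAP1, where the 3 filled marks lie to the right of the 3 open ones.

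The first comparison asked which mitotic transcripts the microRNA-219 mimic brought into, or kept out of, the Ago2 precipitate. In edgeR's quasi-likelihood test with Benjamini-Hochberg adjustment over all 16233 genes, 0 of the 41 transcripts passed an adjusted p of 0.05, and neither did any other gene (0.0% higher and 0.0% lower). The lowest adjusted p among the 41 was 0.999. Their median log2 fold change, microRNA-219 mimic over control, was -0.001, against 0.002 over all genes tested, with 20 above 0 and 21 below. At an unadjusted p under 0.05 there was 1 of the 41 (SMC2), or 2.44%, against 3.01% of all genes, and limma-voom and DESeq2 gave the same single gene at that level and 0 calls among the 41 after adjustment, against 0.0% of all genes with limma-voom and 0.0308% (5 genes) with DESeq2.

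The intervals bound what these libraries leave possible in the fit without the date as a block. Intervals from the fit with that block were not computed. For 41 of 41 transcripts the 95% confidence interval of the fold change lay inside a 2-fold change either way, as it did for 84.4% of all genes, and for 32 of 41 it lay inside a 1.5-fold change, against 55.6% of all genes. The 41 had at least 360 counts in each library, while all genes include low-count ones and were not matched for level. The interval reaching lowest was that of PTTG1, at a log2 fold change of -0.65, and the one reaching highest was that of SMC2, at 0.89. The standard error of the log2 fold change ran from 0.13 to 0.26, with a median of 0.16. All 3 mimic libraries stood above all 3 control libraries for 1 of 41 transcripts (2.44%), RACGAP1, against 4.22% of all genes, and below them for 0 of 41, against 3.84%. The ratio had the same sign on all 3 dates for 14 of 41 transcripts (34.1%), against 30.0% of all genes.

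**Figure D2:**
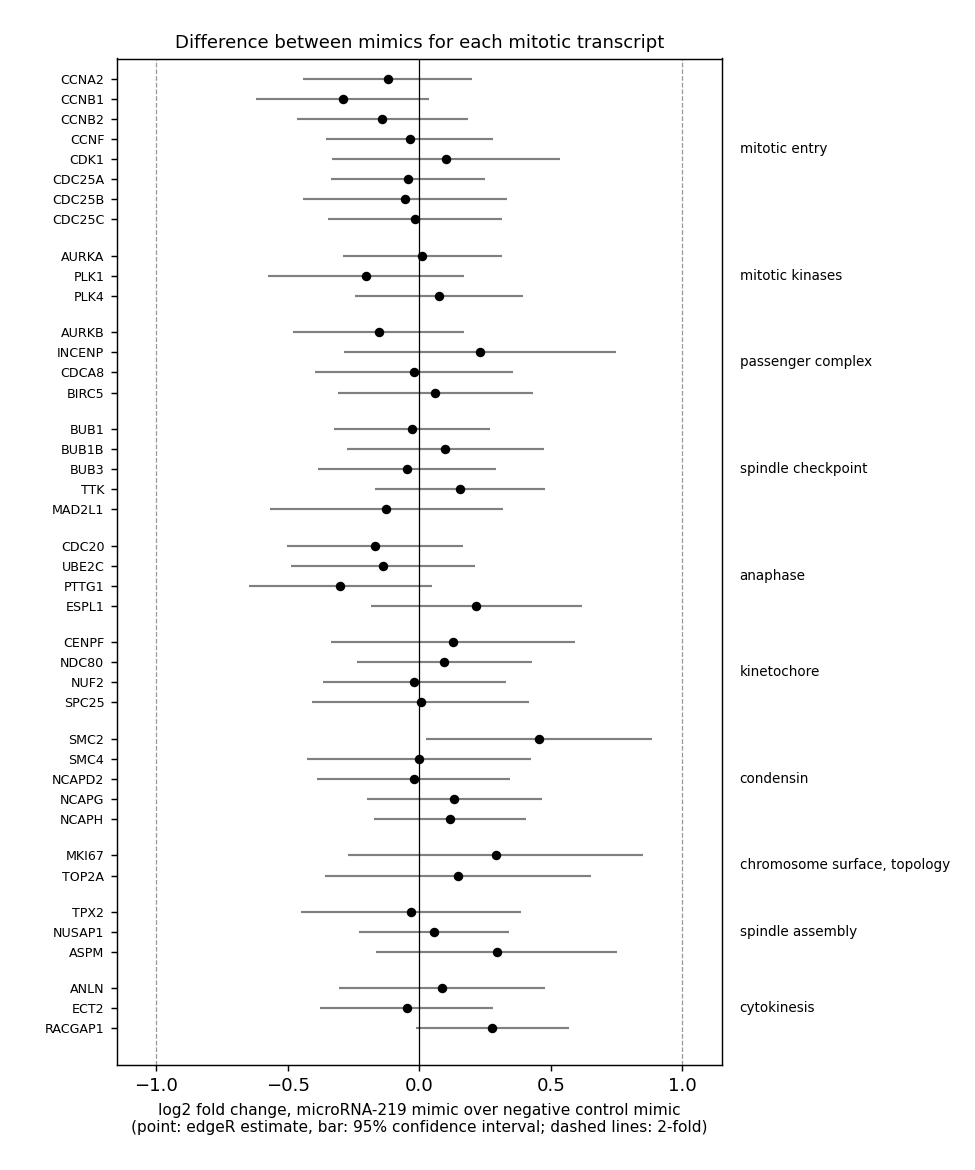
Log2 fold change of each mitotic transcript, microRNA-219 mimic over negative control mimic, from the edgeR fit without the date as a block (points) with its 95% confidence interval (bars). All 41 intervals lie between the dashed lines at a 2-fold change, and the interval of SMC2 is the one that leaves 0 out.

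Among the 8 genes of mitotic entry, 0 passed the test and the median log2 fold change was -0.05, with 1 above 0 (CDK1) and 7 below. CCNB1, cyclin B1 and the partner of CDK1 (chr5:68462837-68474072 in hg19, the build of the deposited coordinates), had 99.0, 105 and 106 CPM with the microRNA-219 mimic, against 150.1, 105 and 124 CPM with the control. The groups met on 5 September, where both libraries had 105 CPM, and the control library of 22 August was the highest of the 6. It averaged 103 ± 3.77 CPM with the microRNA-219 mimic and 127 ± 22.6 CPM with the control (SD, n = 3 each; log2 fold change -0.29, SE 0.15, edgeR adjusted p = 0.999). CDK1, the kinase that drives entry into mitosis, had 116, 155 and 204 CPM with the microRNA-219 mimic, against 157, 121 and 166 CPM with the control. It was lower with the microRNA-219 mimic on 22 August and higher on both September dates, a log2 ratio of -0.43, 0.36 and 0.30 in date order, and its fitted log2 fold change was 0.10 (SE 0.20). The other cyclins, CCNA2, CCNB2 and CCNF, had log2 fold changes of -0.12, -0.14 and -0.04. The phosphatases CDC25A, CDC25B and CDC25C, which remove the inhibitory phosphates from cyclin-dependent kinases, had -0.04, -0.05 and -0.01. Reads of CCNA2 and EXOSC9, and of CDC25C and FAM53C, cannot be told apart where these opposite-strand neighbours overlap, because the labels do not give a strand-marking kit.

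None of the 3 mitotic kinases outside a fixed complex passed the test. PLK1, Polo-like kinase 1, acts at centrosomes, kinetochores and the cleavage site, and had 154, 96.3 and 119 CPM with the microRNA-219 mimic, against 155, 137 and 133 CPM with the control. The mimic library was the lower on all 3 dates, but the difference was close to nothing on 22 August (log2 ratio -0.01) and largest on 5 September (-0.51), and the groups overlapped. The fitted log2 fold change of PLK1 was -0.20 (SE 0.17). AURKA, which acts at spindle poles, and PLK4, which sets off centriole duplication, had log2 fold changes of 0.01 and 0.08.

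The chromosomal passenger complex joins Aurora B kinase to INCENP, borealin (CDCA8) and survivin (BIRC5) and corrects wrong attachments at centromeres. AURKB had 57.0, 60.0 and 65.5 CPM with the microRNA-219 mimic, against 78.9, 57.1 and 67.1 CPM with the control. The 22 August control library stood above the other 5, and the log2 fold change was -0.16 (SE 0.15). INCENP, the scaffold, had 50.3, 40.1 and 25.2 CPM with the microRNA-219 mimic, against 32.7, 41.1 and 24.7 CPM with the control. Here the 22 August mimic library was the highest and the September libraries of both groups were close, so the log2 ratio was 0.62 on 22 August and -0.04 and 0.03 on the later dates. CDCA8 and BIRC5 had log2 fold changes of -0.02 and 0.06. The 4 subunits did not share a direction, with 2 above 0 and 2 below.

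Of the 5 spindle checkpoint genes, 0 passed the test, and their log2 fold changes ran from -0.12 for MAD2L1 to 0.16 for TTK. TTK, the kinase that starts checkpoint signalling at unattached kinetochores, had 72.8, 70.3 and 61.5 CPM with the microRNA-219 mimic, against 70.5, 61.2 and 52.0 CPM with the control. It was higher with the microRNA-219 mimic on each date, by a log2 ratio of 0.05, 0.20 and 0.24, while the groups overlapped (SE 0.15). MAD2L1, which is converted into the inhibitor of CDC20, had the widest range of ratios of the 5, with a log2 ratio of -0.71 on 22 August, 0.35 on 5 September and -0.04 on 18 September. BUB1, BUB1B and BUB3 had log2 fold changes of -0.03, 0.10 and -0.05. Reads of BUB1B and PAK6 cannot be told apart where these genes overlap on the same strand, and how such reads were counted was not examined. PAK6 had 622 counts in all libraries together, against 7081 for BUB1B.

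Among the 4 genes that carry out anaphase, 3 had a log2 fold change below 0 and 1 above, and 0 passed the test. PTTG1 is securin, the inhibitor of separase, and had 36.9, 39.4 and 45.6 CPM with the microRNA-219 mimic, against 58.9, 40.8 and 50.5 CPM with the control. It was lower with the microRNA-219 mimic on all 3 dates, by a log2 ratio of -0.67, -0.05 and -0.14, and it averaged 40.6 ± 4.51 CPM with the microRNA-219 mimic and 50.1 ± 9.04 CPM with the control (SD, n = 3 each). The groups overlapped, and the log2 fold change of -0.30 (SE 0.16) was the lowest of the 41. Its near-identical copies PTTG2 and PTTG3P were listed at 0 in every library. CDC20, the activator of the anaphase-promoting complex, had 183, 133 and 147 CPM with the microRNA-219 mimic, against 193, 161 and 165 CPM with the control. It was lower on all 3 dates with a log2 fold change of -0.17 (SE 0.15), and the 22 August mimic library still stood above 2 control libraries. ESPL1, separase itself, had 120.1, 91.0 and 80.9 CPM with the microRNA-219 mimic, against 72.5, 104 and 74.7 CPM with the control. Its log2 ratio was 0.73 on 22 August, -0.19 on 5 September and 0.11 on 18 September. UBE2C, the ubiquitin-conjugating enzyme of the same complex, had a log2 fold change of -0.14.

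Kinetochore transcripts showed no common direction, with 3 of 4 above 0 and a median log2 fold change of 0.05. CENPF, a large protein of the outer kinetochore and nuclear envelope, had 33.4, 32.0 and 20.2 CPM with the microRNA-219 mimic, against 26.5, 31.9 and 19.8 CPM with the control. The mimic library was higher on 22 August and the groups were close on both later dates, with log2 ratios of 0.33, 0.00 and 0.03. Its log2 fold change was 0.13 (SE 0.21), and -0.01 once the trend with gene length was removed. NDC80, NUF2 and SPC25, members of the 4-part complex that grips microtubules, had log2 fold changes of 0.10, -0.02 and 0.01. All 3 were lower with the microRNA-219 mimic on 22 August, by log2 ratios of -0.17, -0.42 and -0.56, and higher on 5 September, by 0.29, 0.27 and 0.50. SPC24, the subunit of this complex outside the set, did not share that pattern. Its log2 ratios were 0.02 on 22 August and -0.001 on 5 September.

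Condensin held the transcript with the lowest unadjusted p of the 41. SMC2, an ATPase subunit shared by both condensin complexes (chr9:106856541-106903698 in hg19), had 73.4, 70.7 and 45.8 CPM with the microRNA-219 mimic, against 46.2, 55.3 and 37.0 CPM with the control. It was higher with the microRNA-219 mimic on each date, by log2 ratios of 0.67, 0.35 and 0.31, but the 18 September mimic library lay below 2 control libraries, so the groups overlapped. It averaged 63.3 ± 15.2 CPM with the microRNA-219 mimic and 46.1 ± 9.16 CPM with the control (SD, n = 3 each), a 1.37-fold difference with a 95% interval from 1.02 to 1.85. In edgeR the log2 fold change of SMC2 was 0.46 (SE 0.20, unadjusted p = 0.040, adjusted p = 0.999). SMC4, the ATPase that pairs with SMC2, had 78.5, 94.1 and 56.9 CPM with the microRNA-219 mimic, against 84.7, 85.0 and 60.1 CPM with the control, a log2 fold change of -0.001 (SE 0.20). A test of the difference between SMC2 and SMC4 was not run. NCAPD2, NCAPG and NCAPH, the regulatory subunits of condensin I, had log2 fold changes of -0.02, 0.13 and 0.12. SMC4 is overlapped by TRIM59 and IFT80, NCAPD2 by MRPL51 and NCAPG by LCORL, all on the opposite strand.

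Ki-67, the MKI67 product that coats mitotic chromosomes, and topoisomerase II alpha, the TOP2A product that untangles them, were the 2 chromosome surface and topology genes. MKI67 (chr10:129894923-129924649 in hg19) had 90.4, 82.9 and 51.6 CPM with the microRNA-219 mimic, against 44.6, 88.5 and 50.7 CPM with the control. The 22 August libraries differed 2-fold and those of each later date were close, with log2 ratios of 1.02, -0.09 and 0.03. Its log2 fold change was 0.29 with the largest standard error of the 41, 0.26. TOP2A (chr17:38544768-38574202 in hg19) had 261, 267 and 152 CPM with the microRNA-219 mimic, against 248, 221 and 145 CPM with the control. In both groups its 18 September library was below the other 2, and the log2 fold change between mimics was 0.15 (SE 0.23).

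Of the 3 spindle assembly genes, ASPM, which gathers microtubule minus ends at spindle poles, had 31.3, 38.9 and 23.7 CPM with the microRNA-219 mimic, against 23.3, 32.9 and 20.3 CPM with the control. It was higher with the microRNA-219 mimic on each date, by log2 ratios of 0.43, 0.24 and 0.22, with overlapping groups and a log2 fold change of 0.29 (SE 0.21). TPX2, the activator of Aurora A on the spindle, had 152, 117 and 93.4 CPM with the microRNA-219 mimic, against 146, 125 and 99.1 CPM with the control. In both groups TPX2 was highest on 22 August and lowest on 18 September, and its log2 fold change between mimics was -0.03 (SE 0.19). NUSAP1, which binds and bundles spindle microtubules, had a log2 fold change of 0.06.

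RACGAP1, a subunit of the centralspindlin complex that calls up the cleavage furrow (chr12:50370706-50426919 in hg19), had 102, 104 and 84.9 CPM with the microRNA-219 mimic, against 81.8, 79.9 and 78.6 CPM with the control. The groups did not overlap. It averaged 97.1 ± 10.6 CPM with the microRNA-219 mimic and 80.1 ± 1.62 CPM with the control (SD, n = 3 each; log2 fold change 0.28, SE 0.13, edgeR unadjusted p = 0.060, adjusted p = 0.999). ANLN, anillin of the contractile ring, had 123, 122 and 87.0 CPM with the microRNA-219 mimic, against 116, 116 and 81.2 CPM with the control. It was higher with the microRNA-219 mimic by about the same small amount on each date, with log2 ratios of 0.09, 0.07 and 0.10 and a log2 fold change of 0.09 (SE 0.18). ANLN overlaps KIAA0895 on the opposite strand. ECT2, which RACGAP1 recruits to activate RhoA, had a log2 fold change of -0.05.

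With the date as a block, edgeR still called 0 of 41 and 0 genes in all (0.0%), and DESeq2 called 0 of 41, against 0.0678% of all genes. Unadjusted p under 0.05 was then reached by 3 of 41 transcripts (7.32%), against 5.75% of all genes, and all 3 were higher with the microRNA-219 mimic. These were SMC2 (edgeR unadjusted p = 0.0057), ASPM (unadjusted p = 0.031) and RACGAP1 (unadjusted p = 0.036).

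Mimic-to-control ratios of the 41 transcripts were spread most widely on 22 August. Their standard deviation across transcripts was 0.39 on the log2 scale on 22 August, 0.22 on 5 September and 0.13 on 18 September, against 0.50, 0.38 and 0.35 over all genes, which were not matched to the 41 for level. On 22 August the ratio followed the length of the gene model, which runs from 1.07 kb for PTTG1 to 12.7 kb for MKI67. Of the 20 transcripts shorter than the median of 3.53 kb, 3 had a ratio above 0, and of the 21 at or above it, 16 did. The medians were -0.33 for the short and 0.09 for the long transcripts, and -0.12 and 0.17 for all genes split at the same length. Spearman's rho between length and ratio over the 41 transcripts was 0.79 on 22 August, -0.20 on 5 September and 0.24 on 18 September, and over all genes it was 0.38, -0.08 and 0.14. The transcripts share their libraries, so these values are descriptions.

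**Figure D3:**
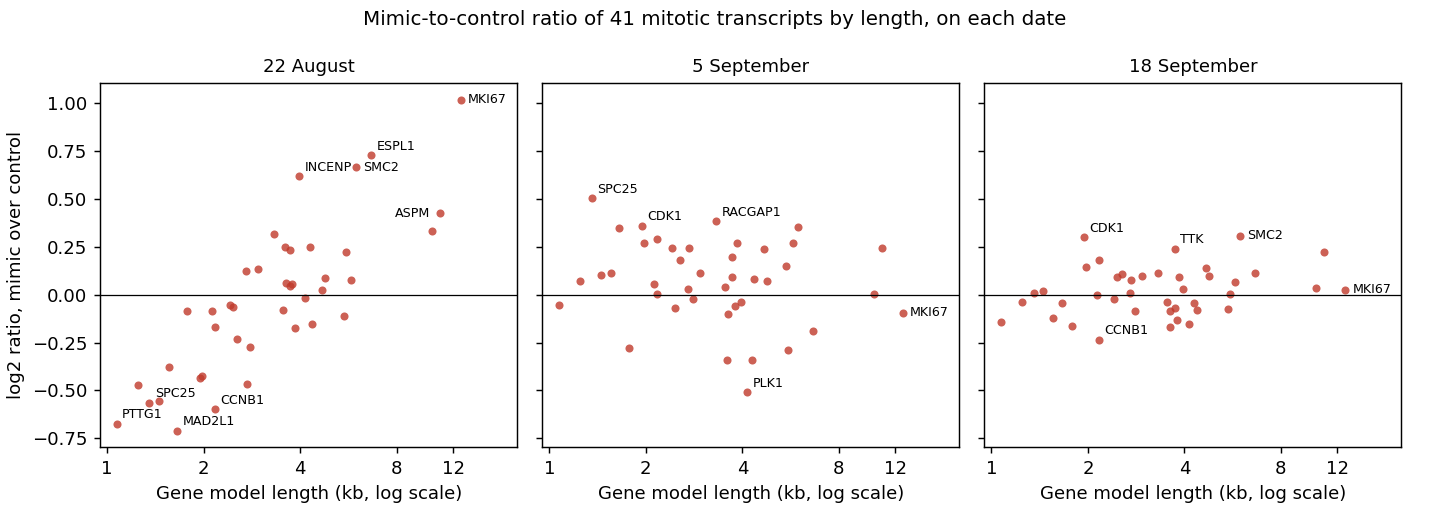
Log2 ratio of the microRNA-219 mimic library over the negative control library of the same date, for 41 mitotic transcripts against gene model length in kb on a log axis. On 22 August short transcripts such as PTTG1 lie below 0 and long ones such as MKI67 above it, with a Spearman rho of 0.79, and on the September dates rho is -0.20 and 0.24.

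The pooled fold change carried the same slope, with a rho of 0.58 against length over the 41 transcripts and 0.28 over all genes. After the trend with length over all genes was removed within each library, the members' rho was 0.23 for the pooled log2 fold change and 0.46 for the 22 August ratio, and the spread of that ratio fell to 0.27. Without both 22 August libraries the rho of the pooled value was -0.06. The estimates of ESPL1, INCENP and MKI67 above 0 rest on 22 August, since without that date their log2 fold changes were -0.06, -0.01 and -0.05. The 22 August libraries also differed in the share of counts from mitochondrially encoded genes, 13.3% with the microRNA-219 mimic and 8.39% with the control. The summed intestinal and plasma cell genes were at 9.43 CPM with the microRNA-219 mimic and 49.5 CPM with the control on that date, before TMM normalization, and 0 of the 6 that could be tested had a ratio above 0. The part of either difference in the slope was not tested.

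The second comparison asked whether the mitotic transcripts differed between the dates, whichever mimic was given. Many long mitotic transcripts, among them TOP2A, SMC2, SMC4, CENPF and ASPM, were at their lowest on 18 September with both mimics, while CDK1 and MAD2L1 were at their highest. In a fit with mimic and date, edgeR's test with 2 degrees of freedom for date called 0 of 41 transcripts, against 0.308% of all genes (50 genes). The lowest adjusted p among the 41 was 0.17, for TOP2A. At an unadjusted p under 0.05 there were 12 of 41 (29.3%), against 13.2% of all genes, which were not matched to the 41 for level or length. Similar lists lay on either side of that share. It was 8 of 13 for mitotic kinesins and partners and 7 of 12 for other condensin and cohesin genes. For other kinetochore and checkpoint genes it was 4 of 33, and for other genes of the anaphase-promoting complex 1 of 16. Genes of mitotic entry and its transcription had 2 of 22, and replication genes 2 of 26. Against the mean of the other dates, 15 of 41 were lower on 18 September at an unadjusted p under 0.05 (36.6%), against 8.53% of all genes, and 1 of 41 (CDK1) was higher, against 7.89%. Both 18 September libraries stood below the 4 earlier ones for 14 of 41 transcripts (34.1%), against 13.5% of all genes, and above them for CCNA2, CDK1 and MAD2L1, 7.32% against 13.1%.

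TOP2A had the lowest unadjusted p between dates of the 41 (edgeR unadjusted p = 0.00089). Its 18 September level was 0.74 below the mean of the other dates on the log2 scale (difference -0.74, SE 0.11), with 152 CPM in the mimic and 145 CPM in the control library against 221 to 267 CPM in the other 4. The condensin ATPases SMC2 and SMC4 had similar estimates, with differences of -0.55 (SE 0.12) and -0.55 (SE 0.11), and NCAPD2, NCAPG and NCAPH had -0.36, -0.33 and -0.13. INCENP had -0.71 (SE 0.17), CENPF -0.63 (SE 0.13), MKI67 -0.55 (SE 0.23), ASPM -0.50 (SE 0.12), ANLN -0.50 (SE 0.10) and TPX2 -0.48 (SE 0.11). On the other side, CDK1 stood at 0.43 (SE 0.17) and MAD2L1 at 0.38 (SE 0.20) above the mean of the other dates. None of these differences passed after adjustment, for which the lowest value on 18 September was 0.13 for TOP2A.

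**Figure D4:**
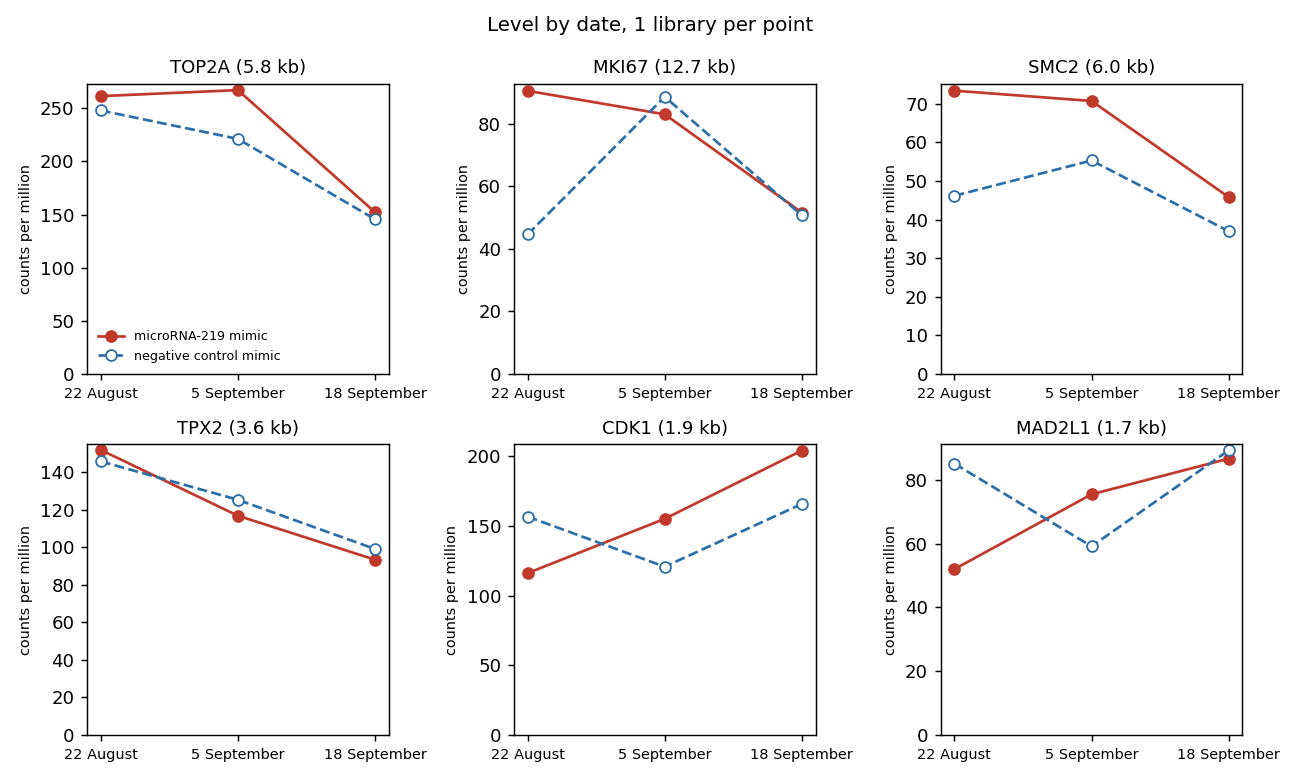
Level in CPM, from 0, of 6 mitotic transcripts by date, 1 library per point, with the microRNA-219 mimic as filled red points and the negative control mimic as open blue points. TOP2A, SMC2 and TPX2 are lowest on 18 September in both groups, CDK1 and MAD2L1 are highest there, and MKI67 differs 2-fold between the groups on 22 August.

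Length again ordered the transcripts. All 21 transcripts at or above the median length were below 0 on 18 September, with a median log2 difference of -0.36, against -0.10 for all genes that long. The 20 shorter ones had a median of 0.01, with 9 below 0, against 0.10 for all shorter genes. Spearman's rho between length and the difference was 0.27 for 22 August, 0.73 for 5 September and -0.77 for 18 September over the 41 transcripts, and 0.00, 0.34 and -0.31 over all genes. By construction the differences of a transcript sum to 0 over the dates. A fall on 18 September therefore raises the values of the other dates, and the dates are not separate observations. With the length trend removed from each library, 20 of the 21 long transcripts were still below 0 on 18 September, at a median of -0.27, and the rho was -0.53. The 20 shorter ones then had a median of -0.11, with 13 below 0, and over all 41 transcripts 33 were below 0, at a median of -0.20, so the side on which the shorter transcripts lay depended on this trend. On 22 August both libraries stood above the other 4 for 10 of 41 transcripts (24.4%), against 6.19% of all genes, namely CDC25B, CDC25C, PLK1, CDCA8, BIRC5, BUB1, TTK, CDC20, NCAPH and TPX2. Other lists stood higher on that date as well. The 7 HEK293 markers were all above 0, with a median log2 difference of 0.24, as were the 13 mitotic kinesins and partners, with a median of 0.21, against 0.16 for the 41 transcripts, of which 32 were above 0. The part of the marker difference in these values was not tested.

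**Figure D5:**
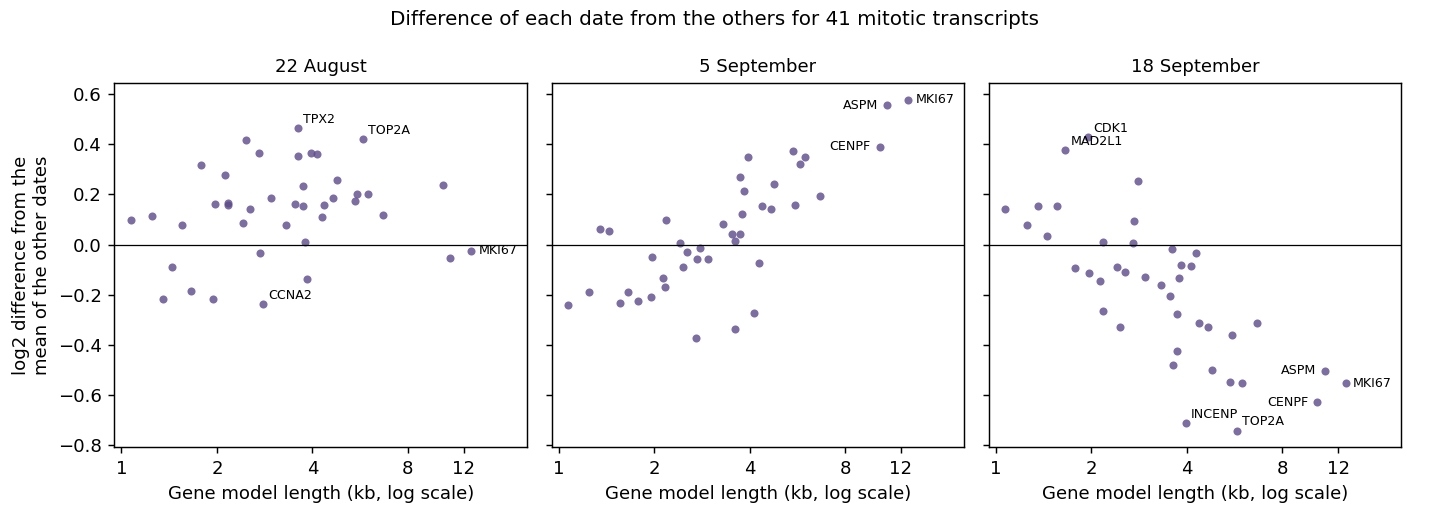
Log2 difference of each date from the mean of the other dates, from the fit with mimic and date, for 41 mitotic transcripts against gene model length in kb on a log axis. On 18 September long transcripts such as TOP2A and CENPF lie below 0 and CDK1 and MAD2L1 above it, and on 5 September the slope runs the other way. The differences of a transcript sum to 0 over the dates by construction, so these slopes are not separate results.

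The number of date calls changed with the libraries that entered the fit. Without the 22 August library of the microRNA-219 mimic, 19 of 41 transcripts passed the date test, against 16.8% of all genes, and without the 22 August control library 22 of 41 passed, against 25.5%. Leaving out a 5 September library gave 7 of 41 (mimic, 4.7% of all genes) and 4 of 41 (control, 2.92%). Leaving out either 18 September library gave 0 of 41 (0.332% and 0.368%). The DESeq2 likelihood ratio test called 1 of 41, TOP2A, against 1.01% of all genes, and edgeR with no filter called 8 of 41, against 2.01%. In the alternative without both 22 August libraries, chosen after the data were seen, 18 September was set against 5 September with 1 library of each mimic per date. There edgeR called 14 of 41 transcripts lower on 18 September (34.1%), against 10.9% of all genes, and 2 of 41 higher, CDK1 and MAD2L1 (4.88%), against 8.43%. The 14 were INCENP, BUB1B, ESPL1, CENPF, SMC2, SMC4, NCAPD2, NCAPG, MKI67, TOP2A, TPX2, ASPM, ANLN and ECT2. All genes were not matched to the 41 for length or level, and this alternative was not run with the length trend removed. With that trend removed, the date test on all libraries called 0 of 41 transcripts and 66 of 16233 genes. In this fit the mimic and control libraries of a date stood as its replicates, so its p-values measure only the spread within such pairs. MKI67 fell to 51.6 CPM in the mimic library and 50.7 CPM in the control library of 18 September, against 82.9 and 88.5 CPM in those of 5 September (log2 fold change -0.76, SE 0.09, edgeR adjusted p = 0.0025). The date left out is the one on which MKI67 differed most between the mimics. With all libraries its 18 September difference had a larger SE and did not pass. CDK1 rose by 0.41 on the log2 scale (SE 0.09, edgeR adjusted p = 0.010).

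Other measures moved with the date too. The 18 September libraries were the shallowest, with 20379336 counts with the microRNA-219 mimic and 20233819 with the control, and AGO2 took the smallest share of counts on that date in either group. In the alternative of 18 against 5 September, the 6 intestinal and plasma cell genes that could be tested were all higher on 18 September, with a median log2 difference of 2.13, and the 7 HEK293 markers had a median of 0.11. The low 5 September control library weighs in that 2.13. From 5 to 18 September, IGHA1 and PIGR went from 0 to 257 and from 1 to 130 counts with the control. With the microRNA-219 mimic they went from 146 to 135 and from 51 to 112 counts. The part of depth, AGO2 share or these transcripts in the date differences was not tested.

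Genes that act beside the 41 gave 0 calls between mimics in every list. Of 33 other kinetochore and checkpoint genes 17 had a log2 fold change above 0, of 16 other genes of the anaphase-promoting complex 5, of 12 other condensin and cohesin genes 11, and of 22 genes of mitotic entry and its transcription 11. Their medians were 0.00, -0.07, 0.11 and 0.00. That of the condensin and cohesin genes was 0.01 with the length trend removed and ran from -0.002 to 0.25 with 1 library left out, its lowest value being without the 5 September library of the microRNA-219 mimic. CENPA, the centromeric histone, had 7.94, 10.96 and 13.7 CPM with the microRNA-219 mimic, against 8.77, 7.25 and 6.69 CPM with the control. It was lower on 22 August and higher on both September dates, with a log2 fold change of 0.52 (SE 0.21, edgeR unadjusted p = 0.032, adjusted p = 0.999). KNTC1, the Rod subunit that brings dynein to kinetochores, had 0.19 (SE 0.14). In the anaphase-promoting complex, ANAPC10 and ANAPC11 had 0.45 (SE 0.26) and -0.23 (SE 0.14). SMC1A of cohesin had 0.28 (SE 0.19) and NCAPH2 of condensin II -0.19 (SE 0.14). RBL1, a pocket protein of DREAM, had 0.23 (SE 0.15), and LIN37 of MuvB had 1.09 (SE 0.45) at levels of at most 1.06 CPM.

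The closest groups outside the pathway were the mitotic kinesins and the replication genes, set beside the 41 without a test. The list of 13 kinesins and kinesin partners had a median log2 fold change between mimics of -0.01, and the 26 replication genes -0.03, again with 0 calls by edgeR. KIF4A, the chromokinesin that works with condensin, had 72.4, 54.6 and 41.6 CPM with the microRNA-219 mimic, against 31.8, 31.6 and 22.3 CPM with the control. Its groups did not overlap (log2 fold change 0.97, SE 0.21, edgeR adjusted p = 0.999, DESeq2 adjusted p = 0.015), and the largest estimate among the 41, that of SMC2, was less than that. KIF11 had 0.22 (SE 0.18). FEN1, the flap nuclease, and POLA1, the catalytic subunit of the polymerase that makes primers, had -0.28 (SE 0.13) and 0.33 (SE 0.16). Between 18 and 5 September, without 22 August, the median log2 difference was -0.18 for the 41 transcripts, -0.36 for the kinesins, -0.47 for the other condensin and cohesin genes, 0.05 for the replication genes and 0.00 for all genes.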

How the data were processed

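The deposited table holds whole-number counts per gene for 6 libraries, with 0 columns left unmapped, and the gene lengths and coordinates used here are the authors' own. Per the submitters' processing notes, STAR 2.5, HTSeq 0.6.1, DESeq2 and the hg19 build were used, and the libraries came from an NEBNext Ultra II RNA kit per the labels. Names matched the reference for 45038 of 48162 gene IDs and for 41 of 41 members.

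Counts were fitted in R 4.3.3 with edgeR 4.0.16 (glmQLFit, glmQLFTest), TMM normalization and filterByExpr (min.count 10, min.total.count 15), with no block. Benjamini-Hochberg adjustment covered all 16233 genes tested at a threshold of 0.05. limma 3.58.1 and DESeq2 1.42.0 served as alternatives, and Python 3.11.15, pandas 2.3.3 and matplotlib 3.10.9 made tables and figures. For the ratios of each date a prior count of 2 was added. SE was derived from the log2 fold change and its F statistic. In the length alternative, a loess curve (span 0.3) on log gene length was subtracted from each library. The code was tested on simulated data.

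The labels give the libraries of a date the same day, so the date pairs them. Deviations of the paired libraries correlated at 0.0466, 0.154 and 0.513 in date order. Members and lists were chosen with earlier results of these data known. Values per library are given for CDK1, CCNB1, PLK1, AURKB, MKI67 and TOP2A, the 12 members with the lowest p between mimics and the 6 with the lowest p between dates. From each other list the 2 genes with the lowest p are named. MAD2L1 and the genes outside these rules were named after their values were seen. The alternatives without both 22 August libraries for dates, and those for length, were added after the data were seen. Sites for the microRNA in the messages were not searched.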

Additional observations from a re-analysis of the deposited data

How the results depend on the processing

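Between mimics, 0 of the 41 transcripts passed under every alternative, including the date as a replicate block in edgeR (0 called) or in DESeq2. Over all genes the count was 0 with edgeR, 5 with DESeq2, 11 with DESeq2 and the block, 20 without a filter on low counts and 0 under the others. The median log2 fold change of the 41 ran from -0.046 to 0.105 with 1 library left out. Their rho with length was -0.0573 without both 22 August libraries and ran from 0.206 to 0.795 with 1 library left out. Of the other lists, the median of the condensin and cohesin genes moved by more than the SD of its median ratio over the dates in 7 of 17 settings, to 0.00935 with the length trend removed and between -0.0022 and 0.248 with 1 library left out, and that of the kinesins in 5 of 17, to 0.138 without both 5 September libraries and between -0.0708 and 0.149 with 1 library left out. Among the roles within the 41, the medians moved in 8 settings each for the passenger complex and cytokinesis and in 6 for condensin, with ranges of -0.0991 to 0.159, -0.0653 to 0.23 and 0.0308 to 0.177 with 1 library left out.

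Between dates, all genes called were 50, and 164 with the DESeq2 likelihood ratio test, 576 with no filter and 3115 without both 22 August libraries, with a range of 55 to 4239 with 1 library left out. For the 41 transcripts these counts were 0, then 1 (TOP2A), 8, 16 and a range of 0 to 22. The cause was not tested.

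Of 526 values for 31 named genes over 17 settings, 499 kept direction and side of the threshold, 3 passed it (KIF4A, with DESeq2 with and without the block and with no filter) and 24 changed sign, none of them past the threshold. Without both 22 August libraries these were AURKB (0.0158), INCENP (-0.0128), ESPL1 (-0.0558), SMC4 (0.0601), MKI67 (-0.0499) and AGO2 (-0.0185). Others were CDK1 without 5 September (-0.00998) or 18 September (-0.0371), SMC4 without 18 September (0.0197) or without AGO2 and mitochondrial genes (0.00402), and CENPF with the length trend removed (-0.0137). With 1 library left out, the log2 fold change ran from -0.124 to 0.284 for CDK1, from -0.00727 to 0.458 for INCENP, from -0.0337 to 0.322 for CENPF, from -0.177 to 0.171 for SMC4, from -0.0481 to 0.366 for TOP2A, from -0.23 to 0.122 for TPX2, from -0.0653 to 0.23 for ANLN and from -0.0867 to 0.364 for AGO2.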
